A study of Mus musculus with 22 samples.

Results

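Thymus of TG Aire-/- mice was set against thymus of TG Aire+/- mice, a comparison in which the 2 groups share the transgene and differ in whether 1 or both copies of Aire are disrupted. The members were the 3 thymus libraries labelled TG Aire-/- and the 3 labelled TG Aire+/-, 6 of the 22 samples of the series. All were C57BL/6 mice of 2 to 4 weeks without treatment, and total RNA of all thymus cells was sequenced in bulk. The series title names the transgenic animals dnTGFβRII Aire-/- mice, and dnTGFβRII is a dominant-negative type II TGF-β receptor expressed in T cells. The 3 Aire-/- thymus libraries without the transgene entered the same fit and are given beside the others where they help. No thymus with 2 intact Aire copies was used here, so the baseline is heterozygous and transgenic. Each of the 3 groups held both sexes by Xist and Y-linked genes, so its libraries were not all from 1 animal, but the labels do not say that every library was a separate animal. What the p-values measure is the variation among these libraries, which can include technical variation.

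Aire is a transcriptional regulator made in a small population of medullary thymic epithelial cells. There it turns on a large set of genes that otherwise belong to peripheral tissues such as gut, pancreas, skin and glands, at low level and each in a minority of cells. Developing T cells that recognise the products are deleted or diverted into the regulatory lineage. In RNA of a whole thymus, where thymocytes far outnumber epithelium, such transcripts are diluted to low values, often below 1 RPKM (a read density that corrects for gene length and library depth). In such bulk RNA, fewer cells of a type and less RNA per cell cannot be told apart.

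TG Aire-/- library 1 stood apart from the other 8 thymus libraries and went against the markers of its labelled tissue. The 18 markers of double-positive thymocytes, the main cell of the thymus, summed to 353 RPKM in it, against 2775 and 3548 RPKM in TG Aire-/- libraries 2 and 3 and 3290 to 3594 RPKM in TG Aire+/- libraries. Rag1, a recombinase that cuts T cell receptor genes, was at 0.571 RPKM in library 1, against 160 and 286 RPKM in the other TG Aire-/- libraries and 248, 305 and 442 RPKM in TG Aire+/- libraries. The thymoproteasome subunit Psmb11 of cortical epithelium was at 0.207 RPKM in library 1, against 15.4 and 14.1 RPKM in libraries 2 and 3 and 18.5, 15.1 and 21.3 RPKM in TG Aire+/- libraries. Markers of B cells summed to 329 RPKM in library 1 and to 41.5 to 45.8 RPKM in TG Aire+/- libraries, and those of adipocytes to 1120 RPKM and 78.4 to 96.1 RPKM. Library 1 is therefore shown apart, and calls that change without it are given both ways. The part of these marker differences in the results was not tested.

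Depth did not separate the groups. The inferred number of mapped reads was 29900000, 24700000 and 25500000 in TG Aire-/- libraries and 28100000, 25800000 and 24800000 in TG Aire+/- libraries. At that depth 3 reads on a transcript of 1000 bases correspond to 0.1 to 0.121 RPKM in TG Aire-/- libraries and 0.107 to 0.121 RPKM in TG Aire+/- libraries, a floor that covers counting error only. Genes with a value above 0 numbered 18306, 17900 and 17664 in TG Aire-/- libraries and 18916, 18845 and 18962 in TG Aire+/- libraries. All 3 TG Aire-/- libraries thus listed fewer genes than any TG Aire+/- library, by 951 genes on average (exact two-sided permutation p = 0.1, the smallest that 3 against 3 libraries allow). At 0.1 RPKM or more the numbers were 16307, 15672 and 15257 in TG Aire-/- and 16260, 16197 and 16354 in TG Aire+/- libraries, and they overlapped through library 1 (exact permutation p = 0.3).

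Aire itself (GRCm38 chromosome 10, 78030022 to 78043610, minus strand) was at 20.2, 6.50 and 7.63 RPKM in TG Aire-/- libraries and at 13.6, 10.9 and 10.2 RPKM in TG Aire+/- libraries. The groups overlapped, and the difference of -0.17 on the log2(RPKM + 1) scale did not pass the test (SE 0.387, limma adjusted p = 0.935). A value summed over the whole gene need not report a disrupted exon, so it does not check the genotype. Tgfbr2, the receptor that the transgene opposes, was at 29.6, 11.1 and 13.4 RPKM in TG Aire-/- and at 13.5, 17.1 and 23.1 RPKM in TG Aire+/- libraries (log2 difference -0.08, SE 0.417, adjusted p = 0.971). Cd4, Cd8a and Cd8b1, the co-receptors of T cells, were lowest in library 1, at 48.4, 52.7 and 91.0 RPKM. None of the 3 passed the test with library 1 or without it.

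Genes known from gut, pancreas, skin and glands were among those lower in TG Aire-/- thymus. With every gene above 0 included, 56 of 21083 genes fell (0.266%) and 1 rose (0.00474%). The genes that fell were low: their mean in TG Aire+/- thymus had a median of 0.452 RPKM, 42 of the 56 were below 1 RPKM there, and 21 were listed at 0 in all 3 TG Aire-/- libraries. In TG Aire+/- thymus 52 of the 56 stood above the level of 3 reads in every library, but only 16 had a mean above 10 times that level. These calls drew on the spread of all 9 thymus libraries, and a group listed at 0 throughout adds no spread. Of the 56, 19 were at 0 in all 3 Aire-/- libraries. With only the 2 groups in the limma fit no gene passed (lowest adjusted p 0.0983). There 876 of 20781 genes had an unadjusted p under 0.05, a share no larger than that threshold gives where nothing differs. All 56 were among the 876, but they had been chosen by a fit of the same libraries. Without library 1, 70 of 20962 genes fell (0.334%) and 6 rose (0.0286%), and 35 of the 56 were among the 70.

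**Figure D1:**
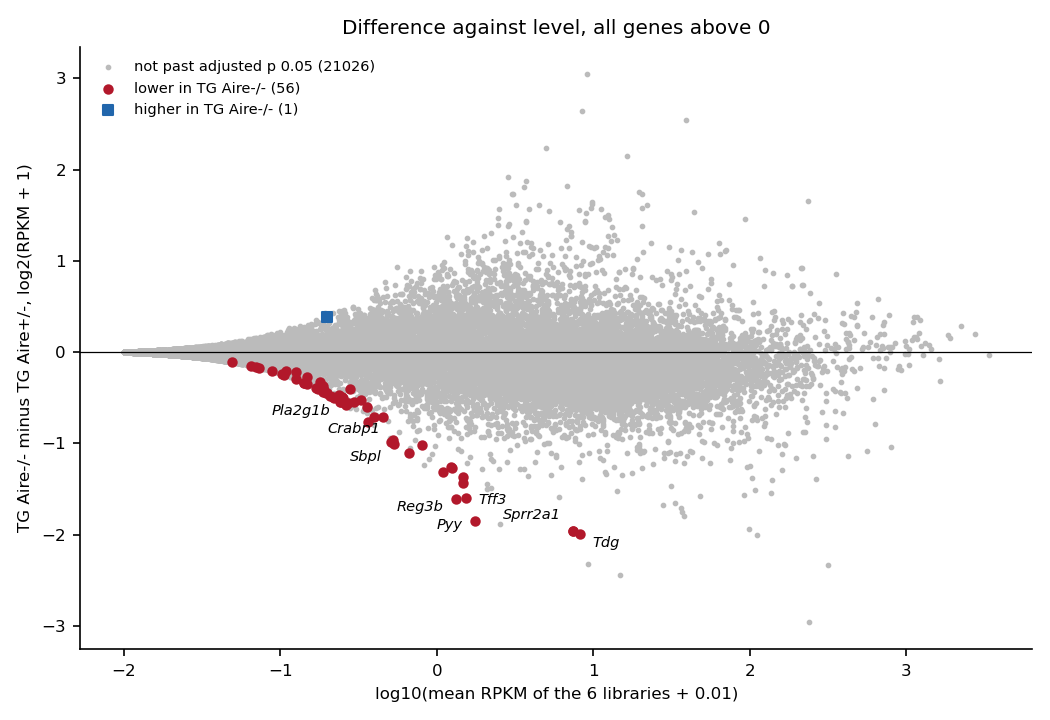
Each point is 1 of the 21083 genes above 0 in a thymus library, with the mean RPKM of the 6 libraries on a log10 axis and the TG Aire-/- minus TG Aire+/- difference on the log2(RPKM + 1) scale. The 56 genes that passed the test as lower (red) run down the lower left edge, most of them below 1 RPKM in TG Aire+/- thymus, and 1 gene passed as higher (blue square).

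Among genes that reached 1 RPKM in at least 3 of the 9 thymus libraries, 12568 in all, none passed the test (0%) with all libraries in limma, and 279 had an unadjusted p under 0.05, of which 206 were lower (1.64%) and 73 higher (0.581%). That balance depended on the scaling: with median-of-ratios scaling, which brings the median of these genes to -0.01 on the log2 scale, against -0.14 without it, 87 were lower and 156 higher, and after scaling to 11 structural genes of medullary epithelium 41 were lower and 1422 higher. Leaving out library 1, 50 of 12406 such genes fell (0.403%) and 0 rose (0%) in limma, with 67 higher at an unadjusted p under 0.05. Values that separated the groups completely leaned to lower ones in the deposited RPKM: every TG Aire-/- library was below every TG Aire+/- library for 1699 genes (8.06%) and above it for 380 genes (1.8%). With median-of-ratios scaling the numbers were 965 genes (4.58%) below and 785 (3.72%) above, and after scaling to medullary epithelium 528 (2.5%) below and 3641 (17.3%) above. All 56 lower genes stayed below in each, but they were chosen by a test of these same libraries, so this is no separate check.

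**Figure D2:**
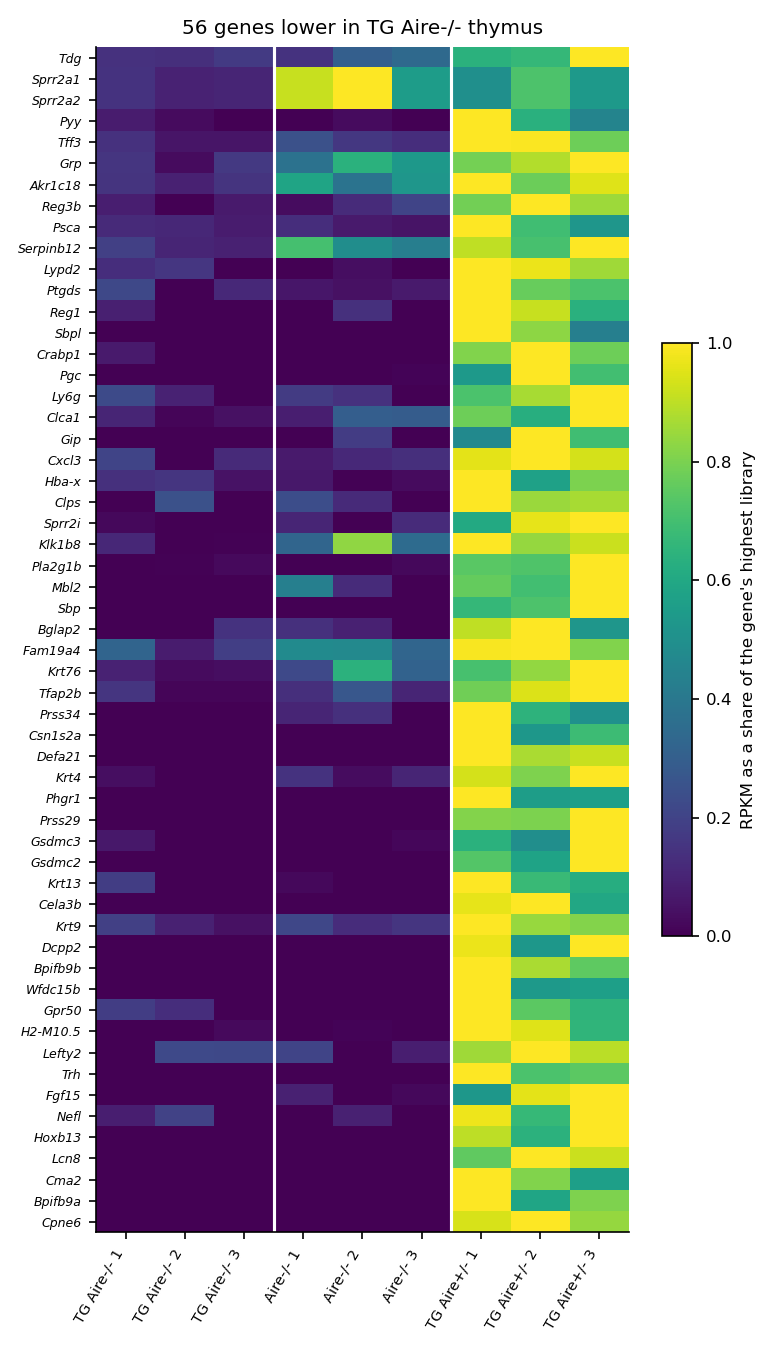
The 56 lower genes are ordered by their TG Aire+/- mean, with 1 column for each thymus library and colour giving RPKM as a share of the gene's highest library. TG Aire-/- columns, library 1 included, are darker than every TG Aire+/- column in all 56 genes, which were chosen by a test of these same libraries. Sprr2a1, Sprr2a2, Serpinb12, Akr1c18 and Grp, for example, are brighter in Aire-/- columns than in TG Aire-/- columns.

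Several hormones of gut and islet cells fell. Pyy, the appetite-suppressing peptide YY of the lower gut, was at 0.361, 0.143 and 0 RPKM in TG Aire-/- libraries and at 4.75, 3.02 and 2.15 RPKM in TG Aire+/- libraries. All 3 TG Aire-/- values, library 1 included, lay below the lowest TG Aire+/- value (log2 difference -1.85, SE 0.22, adjusted p = 0.027). Grp, the gastrin-releasing peptide, was at 0.454, 0.0908 and 0.487 RPKM in TG Aire-/- libraries and at 2.30, 2.57 and 2.91 RPKM in TG Aire+/- libraries (log2 difference -1.43, adjusted p = 0.0441). In Aire-/- thymus without the transgene Grp was at 1.10, 1.86 and 1.55 RPKM, between the other groups. Gip, the incretin of the upper gut, and Trh, the thyrotropin-releasing hormone, were listed at 0 in all 3 TG Aire-/- libraries. Gip stood at 0.466, 0.978 and 0.679 RPKM and Trh at 0.234, 0.168 and 0.175 RPKM in TG Aire+/- libraries, and both fell (adjusted p = 0.0455 and 0.0107). Without library 1 Gip no longer passed (adjusted p = 0.0739), and Trh did (adjusted p = 0.0283). In all, 4 of 25 measured hormones fell, none rose, and 23 estimates were below 0, with a median difference of -0.45 on the log2 scale against -0.04 over all genes tested. Estimates below 0 made up 63.1% of those of all genes tested, of which 0.266% fell and 0.00474% rose. Ins2, insulin, was listed at 0 in all TG Aire-/- libraries and at 1.09, 0.0670 and 0.391 RPKM in TG Aire+/- libraries and did not pass (adjusted p = 0.852).

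Reg lectins encoded near each other on chromosome 6 fell, and an alpha-defensin fell on chromosome 8. Reg3b, a lectin that kills bacteria at the gut surface, was at 0.243, 0 and 0.206 RPKM in TG Aire-/- libraries and at 2.23, 2.84 and 2.42 RPKM in TG Aire+/- libraries (log2 difference -1.61, SE 0.162, adjusted p = 0.0123). Reg1, a secreted protein of the exocrine pancreas, was at 0.131, 0 and 0 RPKM in TG Aire-/- and at 1.48, 1.35 and 0.939 RPKM in TG Aire+/- libraries (log2 difference -1.11, adjusted p = 0.0137). Both were low in every TG Aire-/- library, library 1 included. Their neighbour Reg3g behaved otherwise: it was at 14.8, 1.48 and 1.35 RPKM in TG Aire-/- libraries and at 26.3, 18.3 and 27.1 RPKM in TG Aire+/- libraries, so that it did not pass with library 1 (adjusted p = 0.561) and fell by 3.35 on the log2 scale without it (SE 0.301, adjusted p = 0.0127). Defa21, an alpha-defensin of Paneth cells, was listed at 0 in all 3 TG Aire-/- and all 3 Aire-/- libraries and at 0.424, 0.371 and 0.388 RPKM in TG Aire+/- libraries, and it had the smallest adjusted p of all genes (0.000802). The 2 groups listed at 0 add no spread to the fit, so the residual spread behind that p comes from the TG Aire+/- libraries alone. For this short transcript 3 reads correspond to 0.240 to 0.291 RPKM in TG Aire-/- libraries, and alpha-defensins have near-identical copies, so the single gene is uncertain. Of 18 measured genes in the list of Paneth and antimicrobial genes, 2 fell with all libraries and 5 without library 1. Over all genes tested the shares were 0.266% and 0.334%.

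The letters TATAAA, the core of the TATA box that positions transcription at many tissue-specific promoters, stood in a larger share of the lower genes' promoters than of all promoters. The 80 bases upstream of the start of 6 genes are shown, 5 of the 56 and Reg3g, because they hold the letters TATAAA where the core promoter lies, with those letters in capitals (RefSeq, GRCm38.p6, 5′ to 3′ on the gene's strand). The 3 Reg genes stand together in 1 stretch of chromosome 6, and the others lie on chromosomes 3, 8 and 17.
Reg3b, chr6:78370805-78370884, plus strand: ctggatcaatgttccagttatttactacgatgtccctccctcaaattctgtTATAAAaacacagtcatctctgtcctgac
Reg1, chr6:78425903-78425982, plus strand: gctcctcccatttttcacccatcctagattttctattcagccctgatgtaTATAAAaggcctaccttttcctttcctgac
Reg3g, chr6:78468875-78468954, minus strand: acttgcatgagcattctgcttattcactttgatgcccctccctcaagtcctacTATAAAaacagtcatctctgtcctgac
Sprr2i, chr3:92407911-92407990, plus strand: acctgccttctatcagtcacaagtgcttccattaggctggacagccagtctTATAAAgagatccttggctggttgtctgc
Defa21, chr8:21025465-21025544, plus strand: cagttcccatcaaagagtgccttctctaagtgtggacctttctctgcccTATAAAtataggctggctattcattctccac
Pgc, chr17:47726762-47726841, plus strand: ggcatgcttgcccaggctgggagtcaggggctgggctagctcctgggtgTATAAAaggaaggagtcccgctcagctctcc
The first capital lies 27 to 31 bases before the start in all 6. Of the 56 lower genes 40 had a promoter in the RefSeq table, and 10 of these (25%) held TATAAA on the gene's strand 45 to 10 bases before the start, against 2.88% of the promoters of all genes tested and 4.63% of those of genes at 0.05 to 1 RPKM in TG Aire+/- thymus. On the other strand the same window held it in 0 of 40, against 0.745% of all genes tested. Of the 70 genes lower without library 1, 56 had a promoter and 10 of them (17.9%) held it. The lower genes were also poor in CpG: the 300 bases around the start held a median of 3 CpG dinucleotides, against 16 for all genes tested and 8 for genes at 0.05 to 1 RPKM. A match of letters is a description and not a mapped site.

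**Figure D3:**
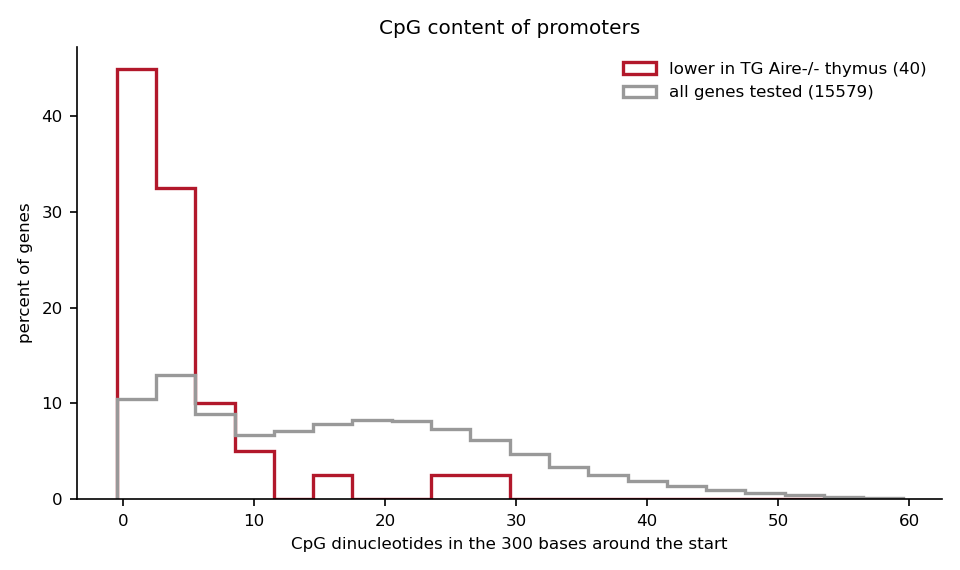
The horizontal axis counts CpG dinucleotides in the 300 bases around the start (the median over a gene's starts) and the vertical axis gives the percent of genes, for the 40 lower genes with a promoter (red) and the 15579 tested genes with one (grey). The lower genes gather at the left, with a median of 3, while all genes tested spread out around a median of 16.

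Genes of stomach, goblet cells and exocrine pancreas fell at lower levels. Tff3, a trefoil peptide that goblet cells secrete with mucus, was at 0.437, 0.171 and 0.169 RPKM in TG Aire-/- libraries and at 3.03, 3.01 and 2.36 RPKM in TG Aire+/- libraries. The means were 0.259 ± 0.154 RPKM in TG Aire-/- and 2.80 ± 0.38 RPKM in TG Aire+/- thymus (SD, n = 3 each), a log2 difference of -1.60 (SE 0.157, adjusted p = 0.0107). Clca1, a protein of goblet cell mucus, was at 0.0919, 0.0136 and 0.0401 RPKM in TG Aire-/- and at 0.704, 0.565 and 0.903 RPKM in TG Aire+/- libraries (log2 difference -0.71, adjusted p = 0.033). Pgc, the precursor of the stomach protease gastricsin, was listed at 0 in all 3 TG Aire-/- libraries and at 0.724, 1.34 and 0.932 RPKM in TG Aire+/- libraries (adjusted p = 0.0107). Psca, a surface protein of stomach and bladder epithelium, was at 0.353, 0.330 and 0.228 RPKM in TG Aire-/- and at 2.96, 2.05 and 1.55 RPKM in TG Aire+/- libraries (log2 difference -1.27, adjusted p = 0.0335, and 0.0549 without library 1). From the pancreas, Pla2g1b (a phospholipase), Clps (the cofactor of lipase) and Cela3b (an elastase) fell, with TG Aire-/- values of 0 to 0.145 RPKM and TG Aire+/- values of 0.222 to 0.582 RPKM. Clps did not pass without library 1 (adjusted p = 0.0552). The counts were 3 of 29 pancreatic genes, 2 of 15 goblet and mucus genes and 2 of 17 stomach genes, none of them rising. Over all genes tested 0.266% fell and 0.00474% rose. Medians were -0.07, -0.17 and -0.11 on the log2 scale in the same lists. Adding 1 to RPKM shrinks differences between low values, so medians near 0 do not show that most of these genes were alike in the 2 groups. For the 6, 4 and 3 members at 1 RPKM the medians were -0.79, -0.90 and -0.72, against -0.14 over all genes at 1 RPKM. A gene can pass that filter through the 3 TG Aire+/- libraries alone. Such selection favours negative differences, so these medians are no separate support for a fall.

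Genes of stratified epithelium fell too, and some were among the more abundant. Sprr2a1, a small proline-rich protein of the cornified envelope, was at 3.12, 2.00 and 2.19 RPKM in TG Aire-/- libraries and at 10.5, 15.2 and 11.4 RPKM in TG Aire+/- libraries (log2 difference -1.96, SE 0.257, adjusted p = 0.0335). In Aire-/- thymus without the transgene it was at 19.3, 21.1 and 11.7 RPKM, all above the TG Aire-/- values. Sprr2a2 has the same values throughout, so the 2 genes cannot be told apart and count as 1 measurement. Sprr2i of the same family was at 0.0132, 0 and 0 RPKM in TG Aire-/- and at 0.357, 0.565 and 0.586 RPKM in TG Aire+/- libraries (adjusted p = 0.0137). Serpinb12, a protease inhibitor of epithelia, was also higher in Aire-/- than in TG Aire-/- libraries: it was at 0.470, 0.252 and 0.225 RPKM in TG Aire-/-, at 1.74, 1.21 and 1.05 RPKM in Aire-/- and at 2.23, 1.74 and 2.46 RPKM in TG Aire+/- libraries (log2 difference -1.25, adjusted p = 0.0452). The mucosal keratins Krt4, Krt13 and Krt76 fell, as did Krt9 of palm and sole skin, and of these 4 only Krt76 did not pass without library 1 (adjusted p = 0.0711). Krt4 was at 0.0146, 0 and 0 RPKM in TG Aire-/- and at 0.385, 0.331 and 0.411 RPKM in TG Aire+/- libraries (log2 difference -0.45, adjusted p = 0.0025). Among 16 squamous keratins 3 fell with all libraries and 3 without library 1, with medians of -0.32 and -0.42. Among 35 cornified envelope genes 3 fell in each, with Sprr2a1 and Sprr2a2 counted separately, and medians were -0.10 and -0.20. Over all genes tested 0.266% fell with all libraries and 0.334% without library 1. For the 1 squamous keratin and the 11 cornified envelope genes at 1 RPKM the medians were -0.64 and -0.06, against -0.14 over all genes at 1 RPKM.

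Several genes of glands were listed at or near 0 in TG Aire-/- thymus. Sbp and Sbpl, the spermine binding protein of the prostate and its relative, were listed at 0 in all TG Aire-/- and all Aire-/- libraries. In TG Aire+/- libraries Sbp was at 0.383, 0.415 and 0.576 RPKM and Sbpl at 1.38, 1.15 and 0.595 RPKM, and both fell (adjusted p = 0.00691 and 0.033). Without library 1 Sbp passed (adjusted p = 0.0184) and Sbpl did not (adjusted p = 0.0557). Csn1s2a, a casein of milk, was listed at 0 in all TG Aire-/- libraries and at 0.562, 0.297 and 0.385 RPKM in TG Aire+/- libraries (adjusted p = 0.027). The abundant casein Csn2 was at 26, 5.88 and 8.09 RPKM in TG Aire-/-, at 47.4, 48.7 and 41.1 RPKM in Aire-/- and at 17.3, 24.4 and 32.9 RPKM in TG Aire+/- libraries, and it fell only without library 1 (log2 difference -1.66, adjusted p = 0.0469 among genes at 1 RPKM). Dcpp2, a salivary gland protein, and the tryptase-like protease gene Prss29 were at 0 in every TG Aire-/- library and below 0.5 RPKM in TG Aire+/- libraries, and both fell (adjusted p = 0.0335 and 0.00185). Dcpp2 did not pass without library 1 (adjusted p = 0.0608).

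**Figure D4:**
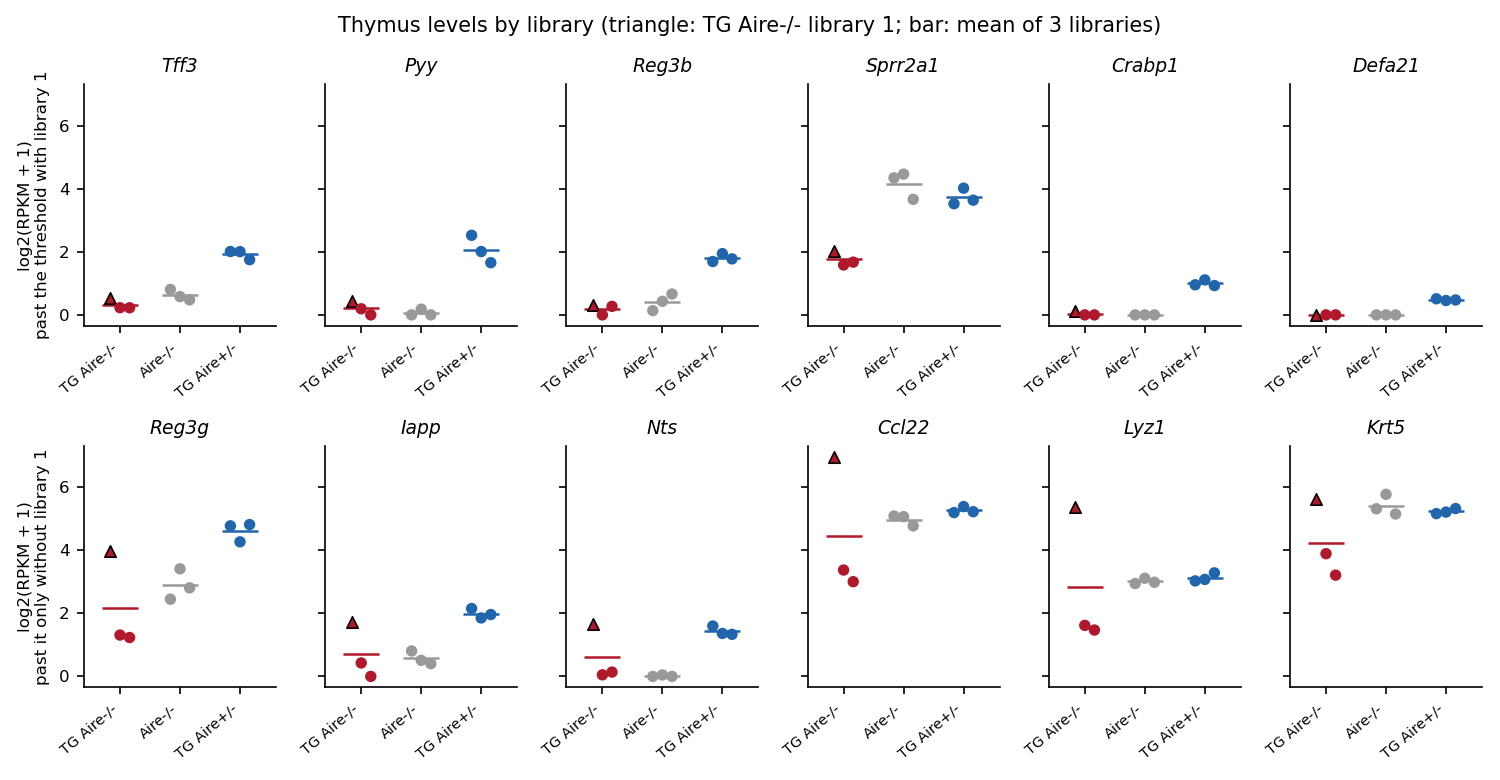
The vertical axis gives log2(RPKM + 1), each point is 1 thymus library, bars are means of 3 libraries and the triangle marks TG Aire-/- library 1. In the upper row (past the threshold with library 1) the triangle lies with the other TG Aire-/- libraries, below every TG Aire+/- library. In the lower row (past it only without library 1) the triangle lies above the other 2 TG Aire-/- libraries. Each row was picked by its outcome in the test, which partly sets where the triangle lies.

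Other lower genes stood outside these tissue lists. Crabp1, which binds retinoic acid, was at 0.0833, 0 and 0 RPKM in TG Aire-/- and at 0.937, 1.16 and 0.904 RPKM in TG Aire+/- libraries (log2 difference -0.96, SE 0.0592, adjusted p = 0.00185), and it stands in the list of Aire-dependent self antigens. Akr1c18, which inactivates progesterone, was at 0.420, 0.263 and 0.425 RPKM in TG Aire-/- and at 2.81, 2.17 and 2.67 RPKM in TG Aire+/- libraries (log2 difference -1.37, adjusted p = 0.0299). Ptgds, a prostaglandin D synthase, was at 0.364, 0 and 0.196 RPKM in TG Aire-/- and at 1.68, 1.29 and 1.21 RPKM in TG Aire+/- libraries (log2 difference -1.02, adjusted p = 0.0276). The developmental transcription factors Hoxb13 and Tfap2b fell too, Hoxb13 with 0 in all TG Aire-/- libraries and 0.167, 0.119 and 0.185 RPKM in TG Aire+/- libraries. Cxcl3, a neutrophil chemokine, was at 0.132, 0.00221 and 0.0769 RPKM in TG Aire-/- and at 0.620, 0.646 and 0.605 RPKM in TG Aire+/- libraries (log2 difference -0.60, adjusted p = 0.00519). Tdg, a DNA repair glycosylase that many tissues express, was at 2.53, 2.40 and 3.03 RPKM in TG Aire-/- and at 11.5, 12 and 18 RPKM in TG Aire+/- libraries (log2 difference -2.00, adjusted p = 0.049, and 0.0739 without library 1). Gm9855, which moved with it at 2.51, 1.83 and 2.79 RPKM in TG Aire-/- and 13.1, 13.9 and 21.1 RPKM in TG Aire+/- libraries, is a near-identical copy, so reads of the pair may be split and neither is certain. Of the 56 lower genes 26 are in a list, 33 measured genes are in the list of Aire-dependent self antigens, and 9 of those 33 fell, 32 having an estimate below 0. Among all genes tested 0.266% fell and 63.1% had an estimate below 0.

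Absence from TG Aire-/- thymus was more common than presence there alone. Above 0 in all 3 TG Aire+/- libraries and at 0 in all 3 TG Aire-/- libraries were 195 genes (0.925%), and the reverse held for 11 (0.0522%). Most of the 195 were barely measured, with a median of 0.0814 RPKM where listed, and 84 of them averaged at least 0.1 RPKM. The highest values included Mucl2 at 0.980 RPKM, the alpha-defensins Defa2 at 0.770 and Defa33 at 0.742 RPKM, the metallothionein Mt4 of squamous epithelium at 0.593 RPKM, the uroplakin Upk3a of bladder at 0.538 RPKM and the tooth enamel protein Amelx at 0.420 RPKM, all as TG Aire+/- means against 0 in TG Aire-/- libraries. These names were chosen after their values were seen, and 21 of the 195 passed the test.

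Lower genes lay close to each other on chromosomes. Another lower gene within 200000 bases was found for 24 of the 56 (42.9%), whereas 523 of 20629 placed genes (2.54%) had a lower gene that near. On chromosome 17 the neighbours were Dcpp2, Sbp and Sbpl, and a second pair was Prss34 and Prss29. On chromosome 15 Psca lay beside Lypd2, Gsdmc2 beside Gsdmc3 and Krt76 beside Krt4. Lypd2, of the Ly6 family, was at 0.272, 0.326 and 0 RPKM in TG Aire-/- and at 2.08, 2.02 and 1.79 RPKM in TG Aire+/- libraries (log2 difference -1.31, adjusted p = 0.00759). Neighbours of 1 family can share reads, which holds for Gsdmc2 and Gsdmc3, Bpifb9a and Bpifb9b and the Sprr2 genes, and the count includes Sprr2a1 and Sprr2a2. In livers of Aire+/+ mice, which the series also holds, 4 of the 56 lower genes (7.14%) reached 1 RPKM in both libraries, against 47.3% of all genes tested. The 2 sets also differed in level in thymus, where 12 of the 56 and 12568 of the 21083 were in the fit at 1 RPKM. Mbl2, the mannose-binding lectin that liver secretes, stood at 317 and 243 RPKM in those livers.

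Library 1 held to the pattern for some genes and broke it for others. Of the 70 genes that fell without it, it lay below every TG Aire+/- library for 52 (74.3%), within their range for 6 and above all of them for 12, whereas it lay below for 38.3% of all genes tested. Of the 50 genes that fell among those at 1 RPKM, it lay below for 24 (48%), against 51.3% of all such genes, a share near the background. Iapp, the amyloid peptide of islet beta cells, was at 2.27, 0.343 and 0 RPKM in TG Aire-/- and at 3.44, 2.61 and 2.89 RPKM in TG Aire+/- libraries, and it fell by 1.78 on the log2 scale without library 1 (adjusted p = 0.0212). Nts, the gut peptide neurotensin, was at 2.14, 0.0341 and 0.0994 RPKM in TG Aire-/-, at 0, 0.0322 and 0 RPKM in Aire-/- and at 2.03, 1.57 and 1.52 RPKM in TG Aire+/- libraries. Without library 1 Nts fell by 1.34 (SE 0.0934, adjusted p = 0.00798), while library 1 was above all TG Aire+/- libraries. Ccl22, a chemokine of dendritic cells and medullary epithelium, was at 123 RPKM in library 1, at 9.35 and 7.02 RPKM in libraries 2 and 3 and at 35.6, 40.8 and 36.3 RPKM in TG Aire+/- libraries, and fell by 2.08 without library 1 (adjusted p = 0.00956). Lyz1, the Paneth cell lysozyme, showed the same split at 40.5, 2.07 and 1.77 RPKM in TG Aire-/- and 7.16, 7.42 and 8.73 RPKM in TG Aire+/- libraries, and fell by 1.59 without library 1 (adjusted p = 0.0184). Its relative Lyz2 of macrophages was at 892 RPKM in library 1, and macrophage markers summed to 1639 RPKM there, against 325 and 238 RPKM in libraries 2 and 3 and 301 to 401 RPKM in TG Aire+/- libraries.

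Structural genes of medullary epithelium had lower values without passing the test, and other genes of that epithelium did not share this in library 1. The 11 structural genes of medullary epithelium summed to 158, 124 and 102 RPKM in TG Aire-/- libraries and to 218, 210 and 208 RPKM in TG Aire+/- libraries, with no overlap of the sums. Singly, 3 of the 11 had every TG Aire-/- library below every TG Aire+/- library, against 8.06% of all genes tested. All 11 estimates were below 0, as were 63.1% of those of all genes tested, with a median of -0.51, and none passed the test. The 16 genes of mature medullary epithelium were split, with 8 estimates below 0 and 8 above, a median of -0.08, and sums of 3165, 568.8 and 248.6 RPKM in TG Aire-/- libraries and 552 to 846 RPKM in TG Aire+/- libraries. Without library 1 all 16 were below 0, as were 66.8% of all genes tested, with a median of -0.62. Of 14 receptors and NF-kB genes of this epithelium 8 were below 0 and 6 above, with a median of -0.09, and -0.43 without library 1. Krt5, the keratin of medullary and basal epithelium, was at 48.6, 13.8 and 8.25 RPKM in TG Aire-/- and at 34.8, 36.0 and 39.0 RPKM in TG Aire+/- libraries, and fell only without library 1 among genes at 1 RPKM (log2 difference -1.68, adjusted p = 0.0441). Fezf2, a second regulator of tissue genes in the medulla, was at 6.54, 2.04 and 1.92 RPKM in TG Aire-/- and at 9.98, 7.23 and 7.14 RPKM in TG Aire+/- libraries, with the same outcome (log2 difference -1.60, adjusted p = 0.0469). When each library was scaled to those 11 structural genes, which puts the median of all genes at 0.19 on the log2 scale, against -0.04 without it, 37 genes were still lower, all among the 56, and 7 were higher. Tff3, Pyy, Crabp1 and Defa21 were among the 37, with differences of -1.38, -1.67, -0.86 and -0.42, while Sprr2a1 and Tdg did not pass (adjusted p = 0.071 and 0.203). In that scaling with all libraries the 33 Aire-dependent self antigens had a median of -0.43, against 0.19 over all genes. With this scaling and without library 1, 141 genes were lower and 775 higher, and these 2 medians were -0.52 and 0.34.

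**Figure D5:**
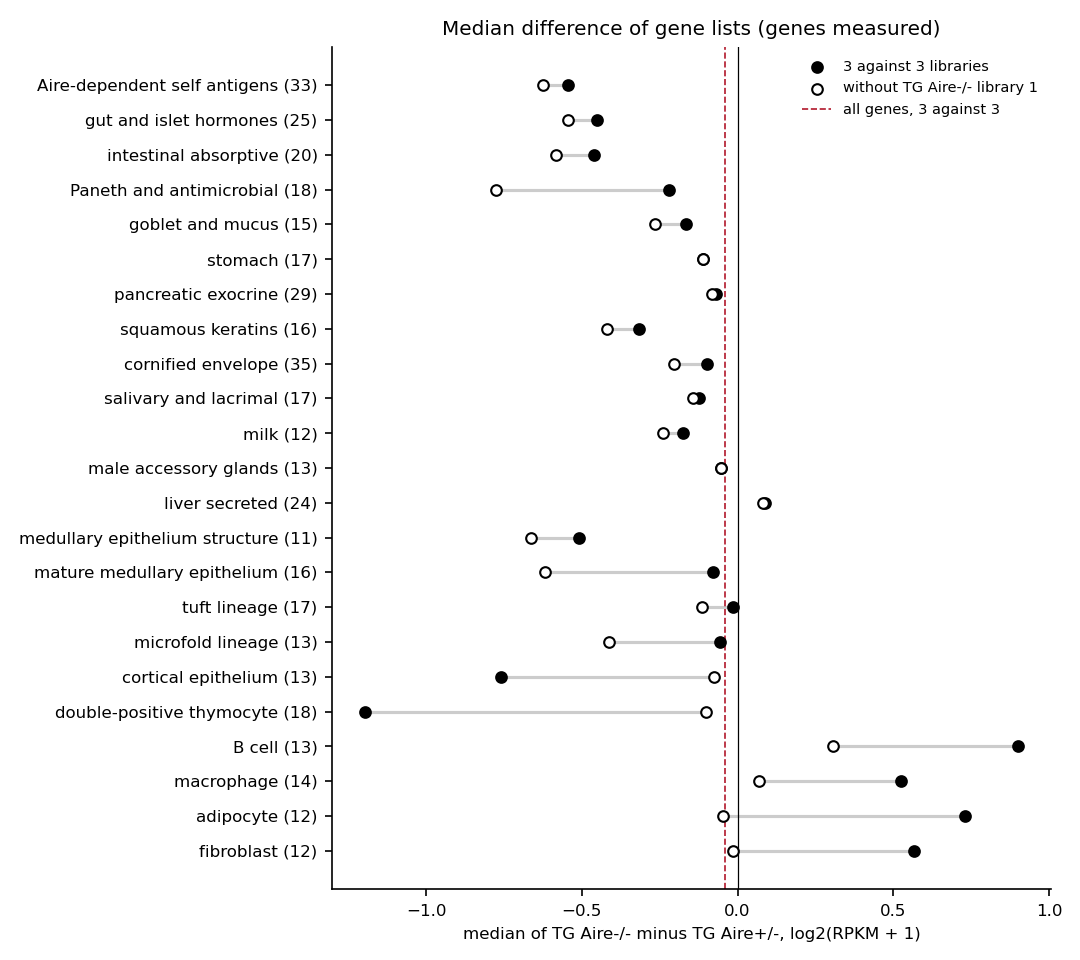
The horizontal axis gives the median TG Aire-/- minus TG Aire+/- difference of each gene list on the log2(RPKM + 1) scale, with the number of measured genes after its name, for all libraries (filled) and without TG Aire-/- library 1 (open). The antigen lists drawn here, other than that of the liver, lie left of the all-gene median (dashed) in both, whereas double-positive thymocyte, B cell and adipocyte markers lie closer to it without library 1.

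Genes of other cell lineages that medullary epithelium can mimic did not pass the test singly with all libraries in the fit. None of 17 tuft cell genes passed, and their sums were 126, 127 and 127 RPKM in TG Aire-/- and 130, 113 and 102 RPKM in TG Aire+/- libraries. The median over tuft genes was -0.01, near that of all genes. None of 24 secreted liver genes, 18 muscle genes or 14 ciliated cell genes passed either, with medians of 0.09, -0.05 and -0.09. Mbl2, which liver also secretes, is not in that liver list and was among the lower genes. None of 13 microfold cell genes passed with all libraries (median -0.06). Without library 1 their median was -0.41, and among genes at 1 RPKM 2 of them fell, Gp2, a receptor for bacteria on microfold cells, and the chemokine Ccl20 (log2 differences -1.84 and -1.69, adjusted p = 0.0397 and 0.0317). Of all genes at 1 RPKM 0.403% fell without library 1. Gp2 was at 3.13, 0.302 and 0.255 RPKM in TG Aire-/- and at 2.63, 3.13 and 5.45 RPKM in TG Aire+/- libraries, overlapping through library 1. Eye and nervous system lists had medians of -0.03 and -0.04. With all libraries 1 of 15 nervous system genes fell, against 0.266% of all genes tested. For the 1 eye gene and the 3 nervous system genes at 1 RPKM the medians were -0.17 and -0.65, against -0.14 over all genes at 1 RPKM. These members too can pass the filter through TG Aire+/- libraries alone, so their medians are no separate support. None of 10 antigens known to depend on Fezf2 passed, with 9 estimates below 0, against 63.1% over all genes tested, and a median of -0.31. A p that misses the threshold does not show that these genes were alike in the 2 groups. Without library 1, the medians of double-positive thymocyte, cortical epithelium and adipocyte markers were -0.10, -0.08 and -0.05 on the log2 scale, against -0.05 over all genes, whereas with library 1 they were -1.20, -0.76 and 0.73.

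Few genes rose. With all libraries only 8430426J06Rik passed, at 0.329, 0.358 and 0.347 RPKM in TG Aire-/- libraries and at 0, 0.0317 and 0.0665 RPKM in TG Aire+/- libraries (log2 difference 0.38, SE 0.0483, adjusted p = 0.033). Library 1 was no exception there. Vpreb3, a protein of developing B cells, was at 7.70, 4.84 and 2.79 RPKM in TG Aire-/- and at 0.580, 0.381 and 0.637 RPKM in TG Aire+/- libraries, above them in every library. It missed the threshold with all libraries (log2 difference 1.92, adjusted p = 0.053) and passed without library 1 (1.62, adjusted p = 0.0329). In Aire-/- thymus it stood at 0.141, 0.227 and 0.356 RPKM. Ms4a8a also rose without library 1, at 3.05, 0.912 and 0.860 RPKM in TG Aire-/- and 0.232, 0.423 and 0.185 RPKM in TG Aire+/- libraries (log2 difference 0.56, adjusted p = 0.0475). The other B cell markers did not pass, and the list summed to 329, 85.0 and 34.7 RPKM in TG Aire-/- and to 41.5, 45.7 and 45.8 RPKM in TG Aire+/- libraries.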

How the data were processed

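The authors deposited RPKM values of 24786 genes for thymus, and the submitters' processing notes name STAR 2.5.2b and mm10. For the annotation and the counting step, the tools are not given in these sources. No further scaling was applied. The depth of each library was read from steps among low values of 6084 single-transcript genes, and 35% to 39.1% of low values were whole reads within 0.1 read, too few for a count test. Under R 4.3.3, limma 3.58.1 (moderated two-sided tests, prior variance following the mean level) was used, and log2(RPKM + 1) of the 9 thymus libraries was fitted in 1 model without covariates, and the contrast TG Aire-/- minus TG Aire+/- was adjusted by Benjamini-Hochberg with a threshold of 0.05. One fit held genes at 1 RPKM or more in at least 3 libraries, the other every gene above 0. Adding 1 shrinks differences between low values, so a log2 difference there is no fold change. The members, the gene lists, the tests and the rule for named genes were chosen with earlier results of these data known. Named genes were Aire, Tgfbr2, Cd4, Cd8a and Cd8b1, the 10 smallest p at 1 RPKM, the 20 largest non-overlapping falls and every rise with low-level genes, the 10 largest changes each way without library 1, and the called and most abundant members of each list; genes named beyond this were picked with values in view. Not all genes within the rule are described singly. Positions come from GENCODE vM21 on GRCm38, the assembly of mm10. The procedure was checked on simulated data with 200 changed genes. Their TG Aire+/- mean was at least 1 on the log2(RPKM + 1) scale, which is about 1 RPKM. The check therefore did not cover falls at lower levels, where most of the lower genes stood. Alternatives were other pseudocounts, scalings and filters, no trend, only 2 groups, the replicate number as a block, sex as a term, sample weights and each library left out; pairs of these, and the scalings behind the counts of genes whose groups did not overlap, were added after seeing the data. The sample weights and the scaling to medullary epithelium were each recoded after a first run, because the weights did not converge and the scaling shifted genes listed at 0. The liver values used are the deposited RPKM values of Aire+/+ livers.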

Additional observations from a re-analysis of the deposited data

How the results depend on the processing

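Counts depended on how the spread was estimated and on single libraries. With low-level genes, where 57 genes passed, the number was 55 to 65 with a pseudocount of 0.1 or 0.5 or scaling each library to 1 total, and 44 after scaling to medullary epithelium genes. It was 36 with median-of-ratios scaling, 12 without the trend, 27 with sex as a term, 22 with a filter of 0.1 RPKM and 294 with sample weights. With only the 2 groups compared it was 0, also without library 1 and also with a pseudocount of 0.1. Leaving out 1 library gave 9 to 76 genes: 9 without TG Aire-/- library 2, 14 without TG Aire-/- library 3, and 29, 21 and 20 without Aire-/- library 1, 2 and 3. Scaling to medullary epithelium without library 1 gave 916, of which 141 were lower. At 1 RPKM, where 0 genes passed in limma, leaving out 1 library gave 0 to 50, sample weights 219, scaling to medullary epithelium 1, and without library 1 the 2 groups alone 63, median-of-ratios scaling 12 and scaling to medullary epithelium 1667, of which 1605 were higher. The replicate block left 0 genes at 1 RPKM and 9 with low-level genes, all 9 among the 56. Replicate numbers did not pair the samples, with correlations of -0.183, 0.183 and -0.034 between deviations of same-numbered libraries of the 2 groups. The 33 of the 56 lower genes that were named, all chosen for passing the main fit, kept their direction in 792 of 792 combinations of gene and alternative setting. They passed in 416 of these combinations. Signs turned for Aire (0.33 with medullary scaling, 0.066 with it and without library 1, and -0.64 to 0.12 over libraries left out), Ccr7 (0.23 with medullary scaling, and -0.41 to 0.36 over libraries left out), Cd4 (0.51), Cd8a (0.70, and 0.063 with median-of-ratios scaling) and Cd8b1 (0.60) with medullary scaling and without library 1, Tgfbr2 (0.44 with medullary scaling, 0.24 with it and without library 1, 0.059 with median-of-ratios scaling, and -0.49 to 0.18 over libraries left out) and Lyz1 (0.11 with medullary scaling, and -0.36 to 0.37 over libraries left out). The cause of these shifts was not tested. Depth limits genes under about 0.1 RPKM, where 3 reads or fewer carry a value.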
